A study of Homo sapiens with 4 samples.

Results

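The transcriptome described here is that of the untreated control of an siRNA experiment in MDA-MB-231 cells, which carried a control siRNA (siControl) and was measured in 1 RNA-Seq library. It was set beside the other 3 of the 4 libraries of the series: siControl cells given 50 µM kahweol for 48 h, untreated cells transfected with siRNA against CTGF (siCTGF; the gene is now named CCN2), and siCTGF cells given 50 µM kahweol for 48 h. Kahweol is a diterpene of coffee beans. All cells of the series were labelled as 1 line, whose identity was not tested here. By the study's methods they went through siRNA transfection and were then held in medium without serum. The untreated siControl library is thus a transfected control and not an unhandled culture. No vehicle is named for the untreated cells. Each condition had 1 library, so no value has a replicate error, no test between conditions was made, and intervals cover counting error only. Values were given for 35993 genes, 19319 of them protein-coding. The untreated siControl library had 59129784 counts against 44781516 to 51830429 in the other 3.

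MDA-MB-231 is a line from the pleural fluid of a patient with metastatic breast cancer and is widely used as a model of triple-negative disease, that is, breast cancer without estrogen receptor, progesterone receptor and HER2 amplification. The line is known for a spindle shape, invasive growth and loss of CDKN2A. Epithelial cells are held together by E-cadherin, claudins and desmosomes over a keratin skeleton, whereas mesenchymal cells rely on vimentin filaments, integrins and the matrix they secrete. Which of these genes the control cells used was the question put to the library.

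Of the 19319 protein-coding genes, 12133 (62.8%) were on, defined as a TPM of at least 1 (transcripts scaled by length to a fixed total in each library), 2083 were low, from 0.1 to under 1 TPM, and 5103 (26.4%) were off, under 0.1 TPM. No read was counted for 3910 genes, which allows each of them up to 3 fragments, or 0.101 CPM (counts scaled to a fixed total). The median gene on had 19.3 TPM (quartiles 7.09 and 47.3) and 1998 counts. Of the genes on, 11312 (93.2%) were on in all 4 libraries and 49 were off in at least 1 of the others. Of the genes off, 4291 (84.1%) were off in all 4 libraries and 13 were on in at least 1 of the others. Most calls of the untreated siControl library thus held in the other libraries too.

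**Figure D1:**
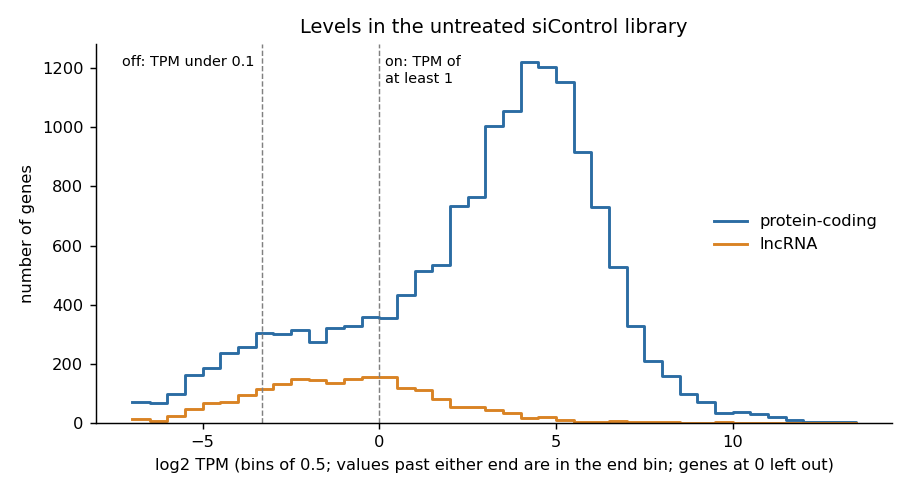
Number of genes (vertical axis) by log2 TPM in bins of 0.5 (horizontal axis) in the untreated siControl library, with lines at the limits for off (0.1 TPM) and on (1 TPM). Protein-coding genes peak to the right of the limit for on, near 19.3 TPM, the median of the genes on, and long noncoding genes, of which 13.8% were on, lie lower.

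The protein-coding TPM was concentrated in few genes. The 521 highest genes were needed to reach 50% of the protein-coding TPM, and the 100 genes of at least 1000 TPM held 26.9% of it. The highest was EEF1A1, the elongation factor that brings aminoacyl-tRNA to the ribosome, with 8944 TPM. It was followed by the glycolytic enzyme GAPDH with 6632 TPM, the ribosomal stalk protein RPLP0 with 4692 TPM, the actin-binding thymosin TMSB10 with 4573 TPM and RPL7A with 4084 TPM. RACK1, a scaffold on the ribosome, had 3928 TPM, the glycolytic enolase ENO1 had 3568 TPM, and RPL19, RPL6 and RPL35 completed the first 10. The cytosolic ribosomal proteins were on in 79 of 81 cases, against 62.8% of all protein-coding genes. Their median was 1208 TPM, and the 2 off were the tissue-restricted copies RPL10L and RPL3L.

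Noncoding RNA took a share of the library that depended on the unit. Protein-coding genes held 75.4% of the TPM but 92.0% of the counts, since TPM divides by length and the abundant noncoding RNAs are short. The highest genes of any class were the mitochondrial 16S rRNA RNR2 (41361 TPM), the U3 snoRNA SNORD3A (40299 TPM), the transcription regulator RN7SK (33761 TPM), and RN7SL1 (31750.2 TPM) and RN7SL2 (26008 TPM), the RNAs of the signal recognition particle. RMRP, RNR1 and RPPH1 were also among the first 10, with 20145, 13117 and 7287 TPM. The libraries were depleted of rRNA before sequencing, so the values of RNR1 and RNR2 need not reflect their levels in the cells. Together the 7 highest noncoding genes held 20.7% of the TPM and 6.13% of the counts. Of 5120 long noncoding RNA (lncRNA) genes, 705 (13.8%) were on and 3476 (67.9%) were off, and all of them together held 0.78% of the TPM. The lncRNA SNHG29, a snoRNA host, was highest with 1021 TPM. Of 20 lncRNAs listed by name, 11 were on, led by GAS5 (269 TPM), CYTOR (227 TPM), NORAD (214 TPM), MALAT1 (168 TPM) and UCA1 (126 TPM), while MEG3, LINC-ROR, CASC15 and LINC01133 were off.

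The promoters of 4 genes are printed as examples of the letters counted below. Each runs from 250 bases before to 50 bases after the annotated start, 5′ to 3′ on the strand of the gene. They come from RefSeq on GRCh38.p14, whereas the gene table was built on GRCh37.p13. Capitals mark CG pairs and the letters TATAAA. VIM (chr10:17227991-17228290, plus strand) and CCN2 (chr6:131951323-131951622, minus strand) were on, CXCL8 (chr4:73740319-73740618, plus strand) was on, and the milk protein gene CSN2 (chr4:69965679-69965978, minus strand) had 0 counts.
VIM: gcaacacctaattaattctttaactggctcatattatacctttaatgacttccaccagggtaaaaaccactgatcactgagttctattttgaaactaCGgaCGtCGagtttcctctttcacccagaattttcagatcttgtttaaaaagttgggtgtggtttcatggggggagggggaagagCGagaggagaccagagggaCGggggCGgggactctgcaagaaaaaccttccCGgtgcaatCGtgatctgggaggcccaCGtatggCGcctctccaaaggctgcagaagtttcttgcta
CCN2: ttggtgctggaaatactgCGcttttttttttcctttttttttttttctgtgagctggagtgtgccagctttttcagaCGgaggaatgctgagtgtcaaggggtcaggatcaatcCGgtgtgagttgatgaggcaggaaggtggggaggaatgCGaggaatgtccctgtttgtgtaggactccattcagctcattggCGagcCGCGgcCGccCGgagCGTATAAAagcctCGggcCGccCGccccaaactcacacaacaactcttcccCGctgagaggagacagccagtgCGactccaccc
CXCL8: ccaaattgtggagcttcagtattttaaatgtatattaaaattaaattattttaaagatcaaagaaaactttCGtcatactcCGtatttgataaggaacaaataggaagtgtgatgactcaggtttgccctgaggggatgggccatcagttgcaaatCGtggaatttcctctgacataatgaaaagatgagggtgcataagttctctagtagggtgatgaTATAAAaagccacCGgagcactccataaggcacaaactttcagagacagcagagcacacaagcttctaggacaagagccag
CSN2: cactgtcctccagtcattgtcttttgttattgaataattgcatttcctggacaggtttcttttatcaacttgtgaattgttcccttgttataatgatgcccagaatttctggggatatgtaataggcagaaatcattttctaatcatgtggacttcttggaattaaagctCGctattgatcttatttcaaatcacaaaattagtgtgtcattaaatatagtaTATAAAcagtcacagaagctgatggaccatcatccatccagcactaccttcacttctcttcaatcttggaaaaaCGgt
The letters TATAAA began 32 bases before the start in CCN2, 31 in CXCL8 and 28 in CSN2, and were not found in the VIM window. CCN2 had 15 CG pairs and VIM had 10, against 4 in CXCL8 and 2 in CSN2. The ratio of observed to expected CG pairs was 0.68 in CCN2, 0.58 in VIM, 0.35 in CXCL8 and 0.22 in CSN2. The TATA letters alone did not separate genes on from genes off among these 4. Only CCN2 reached a ratio of 0.6, the limit used below, so that limit did not separate them either.

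Over all genes, CG content followed whether a gene was on. The count was made on the 15 chromosomes on which at least 80% of protein-coding genes had a promoter in the RefSeq table (11426 of 13187 genes), because the match over all chromosomes was 79.5%. A ratio of at least 0.6 was found in 89.5% of genes on, 55.1% of genes low and 32.8% of genes off. By level, the share was 29.2% at 0 TPM, 80.6% from 1 to under 10 TPM and 93.7% from 10 to under 100 TPM. The letters TATAAA between 45 and 15 bases before the start, on the strand of the gene, took a different course. They were present in 9.04% of genes at 0 TPM, in 1.68% from 10 to under 100 TPM, in 6.11% from 100 to under 1000 TPM and in 18.97% (11 of 58) at 1000 TPM and over, against 4.17% of all 11426. Searched anywhere in the window on either strand, TATAAA was present in 12.2% of all promoters.

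**Figure D2:**
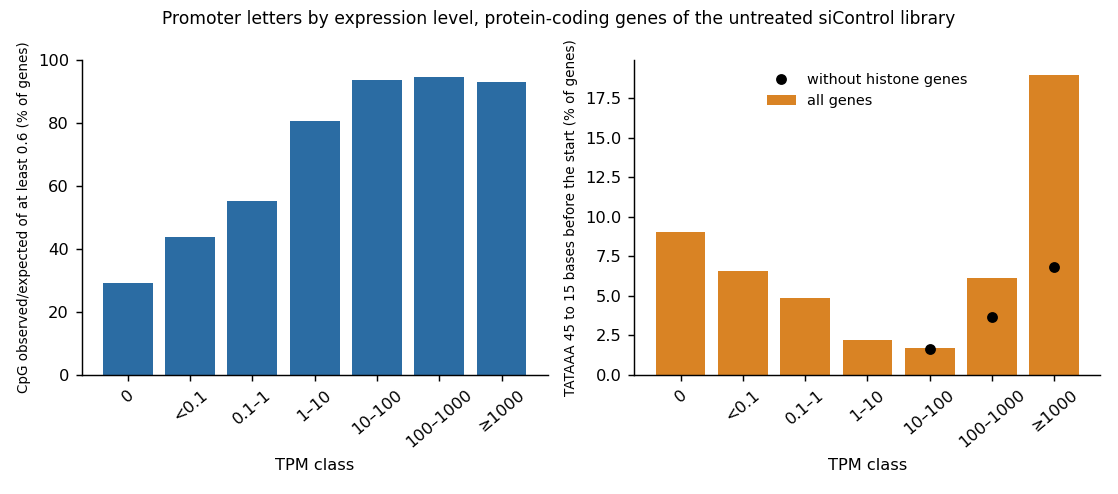
Share of protein-coding genes (vertical axes, percent) whose promoter had a CG ratio of at least 0.6 (left) or TATAAA between 45 and 15 bases before the start (right), by TPM class in the untreated siControl library; points leave out the histone genes. The left bars climb to over 90% from 10 TPM upward, and the right bars are lowest at 1.68% from 10 to under 100 TPM and highest at 18.97% in the top class, where the point stands at 6.82%.

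Histone genes made up most of the top class of the TATA curve. Of the 11 genes at 1000 TPM and over with the letters in place, 8 were histone genes, and the other 3 were ANXA2, EEF2 and PPIA. Without histone genes the share was 6.82% (3 of 44) in the top class and 3.64% from 100 to under 1000 TPM, where 19 of the 45 genes with the letters were histone genes. Without ribosomal protein genes, which had none of the letters in the top class, the share there was 34.4% (11 of 32). Histone genes package DNA and are transcribed in S phase mostly without a poly(A) tail. They were on in 55 of 78 cases, against 62.8% of all protein-coding genes, and 14 of them reached 1000 TPM. The linker histone genes H1-2 and H1-4 had 1967 and 1857 TPM, and H2AC19 had 1745 TPM. These genes held 4.60% of the protein-coding TPM, against 2.56% in the siControl kahweol library, 4.79% in the siCTGF untreated library and 2.08% in the siCTGF kahweol library. Several are near-identical copies, such as H4C14 and H4C15 (1283 TPM each), between which the reads may have been split, so single values are uncertain. The histone and ribosomal protein genes were singled out here after their values were seen.

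VIM, CCN2 and CCND1, taken as markers of the line, were all on. VIM (chr10:17270240-17279592, GRCh37), which encodes the intermediate filament of mesenchymal cells, had 2750.4 TPM (interval 2732 to 2768), rank 16 of the protein-coding genes, against 2082 TPM in the siControl kahweol library, 2819 TPM in the siCTGF untreated library and 2501 TPM in the siCTGF kahweol library. CCND1 (chr11:69455924-69469242), the D cyclin that starts the cell cycle with CDK4 and CDK6, had 332 TPM, against 162, 173 and 81.3 TPM in the siControl kahweol, siCTGF untreated and siCTGF kahweol libraries. CCN2 (chr6:132269316-132272512), a secreted matricellular protein and the target of the siRNA, had 140.2 TPM, against 140.4 TPM in the siControl kahweol library, 53.9 TPM in the siCTGF untreated library and 22.5 TPM in the siCTGF kahweol library. The CCN2 values of both siCTGF libraries were below those of both siControl libraries, as their labels say. Of the other CCN genes, CCN1 had 64.1 TPM and CCN3 4.94 TPM, CCN5 (0.68 TPM) and CCN4 (0.12 TPM) were low, and CCN6 was off with 3 counts. CCN2 therefore held 66.7% of the family's TPM.

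Further genes of interest to the kahweol experiments were those of focal adhesion and matrix. VCL, which encodes the focal adhesion protein vinculin, had 139.7 TPM, against 60.1 to 122 TPM in the other 3 libraries. The interstitial collagenase MMP1 had 20.5 TPM, against 31.0 to 53.3 TPM in the others. Both collagen genes were scarce. COL4A4, a basement membrane collagen, had 0.83 TPM from 251 counts (interval 0.69 to 0.99), and COL11A1, a fibrillar collagen, was off with 5 counts and 0.021 TPM. The kinase genes AKT1 (145 TPM), MAPK14 (76.6 TPM), PTK2 (67.4 TPM), MAPK8 (30.5 TPM), MAPK3 (17.4 TPM) and PIK3CA (17.3 TPM) were all on.

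The estrogen and progesterone receptors that define luminal breast cancer were off. ESR1, the estrogen receptor, had 6 counts and 0.028 TPM, against 0 to 0.0229 TPM in the other 3 libraries. PGR, the progesterone receptor, had 37 counts and 0.093 TPM (interval 0.055 to 0.15), which crosses the limit for off. TFF1, TFF3, AGR2 and AGR3, secretory genes of luminal cells, were off as well. The luminal transcription factors GATA3 (0.83 TPM) and FOXA1 (0.36 TPM) were low rather than off. Of 19 luminal genes 7 were on, a share of 36.8% against 62.8% for all protein-coding genes, and the highest were XBP1 (95.7 TPM), a factor of the unfolded protein response, and the zinc transporter SLC39A6 (80.5 TPM). Of all 46 nuclear receptors, 25 were on, led by ESRRA (77.0 TPM), NR2F6 (40.6 TPM), NR1H2 (40.2 TPM), the glucocorticoid receptor NR3C1 (38.9 TPM) and NR1D2 (32.9 TPM).

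Genes of the ERBB receptors and their ligands were on in 11 of 15 cases, against 62.8% of all protein-coding genes. EGFR had 36.7 TPM (interval 35.7 to 37.7), ERBB2, which encodes HER2, had 29.5 TPM, ERBB3 had 3.86 TPM, and ERBB4 was off with 3 counts. The EGFR ligand HBEGF had 175 TPM, EREG 79.2 TPM, AREG 46.4 TPM and TGFA 20.1 TPM, so that 3 ligand genes stood above their receptor. The highest of 38 receptor tyrosine kinases was AXL, the receptor of GAS6, with 437 TPM, 11.9 times the TPM of EGFR and 10.2 to 11.3 times in the other 3 libraries. EPHA2 (161 TPM), MET (87.0 TPM), RYK (66.0 TPM) and DDR1 (37.8 TPM) came next. In all, 25 of the 38 were on (65.8%, near the 62.8% of all protein-coding genes), with a list median of 2.70 TPM. PDGFRA, KIT, NTRK2, NTRK3, ALK, ROS1 and TEK were off.

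Genes of epithelial adhesion and identity were on in 35 of 39 cases (89.7%), a larger share than the 62.8% of all protein-coding genes and than the 22 of 32 (68.8%) of the mesenchymal list. The medians of the lists were close, with 9.497 TPM for the epithelial and 10.7 TPM for the mesenchymal list. The sums were 855 and 5370.3 TPM, and VIM alone held 51.2% of the mesenchymal sum. SPINT2, an inhibitor of membrane serine proteases, was the highest epithelial gene with 203 TPM. The tight junction genes CLDN4 and CLDN7 had 152 and 46.6 TPM, the adhesion molecule EPCAM 39.0 TPM, the epithelial transcription factors EHF and ELF3 42.4 and 15.1 TPM, and the splicing factor ESRP1 10.9 TPM. CDH1, which encodes E-cadherin, had 3.77 TPM from 550 counts (interval 3.34 to 4.25). OVOL2, PKP1 and ELF5 were off. CLDN7, EPCAM and RAB25 (15.5 TPM) are genes that this line is usually described as lacking, and the identity or purity of the culture was not tested.

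On the mesenchymal side the high members beside VIM included AXL (437 TPM), the ectonucleotidase NT5E (403 TPM), moesin, MSN (367 TPM), and TGFBI (319 TPM). ZEB1, a repressor of CDH1, had 32.5 TPM, against 33.8 to 43.4 TPM in the other 3 libraries, and SNAI2 and SNAI1, repressors of the same gene, had 10.98 and 3.41 TPM. Fibronectin, FN1, had 38.9 TPM. N-cadherin, CDH2, was low with 23 counts and 0.18 TPM, and so was TWIST1 with 8 counts and 0.16 TPM. CDH11, TWIST2, FOXC2, TCF4 and THY1 were off. Members of both programs were thus on in 1 library, which reads the sum over its cells and cannot tell cells with both programs from a mixture.

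**Figure D3:**
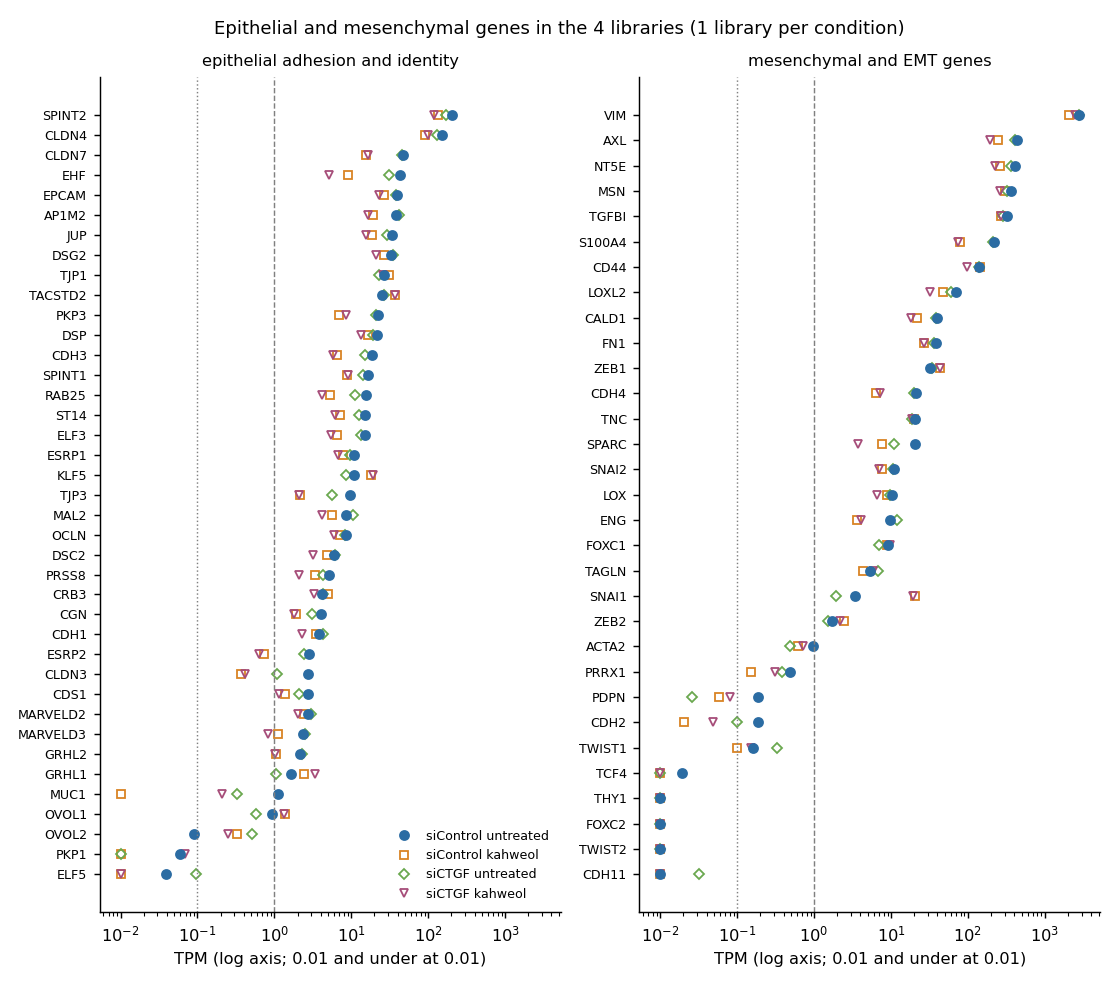
TPM (horizontal log axis) of genes of the epithelial list (left) and the mesenchymal list (right), with filled points for the untreated siControl library and open symbols for the other 3; the dashed line marks 1 TPM and the dotted line 0.1 TPM. Most epithelial genes lie between 1 and 100 TPM, VIM stands alone at 2750.4 TPM, and CLDN7, EHF and RAB25 are lower in both kahweol libraries than in both untreated libraries.

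Some epithelial genes differed widely among the 4 libraries. CLDN7 had 46.6 TPM in the untreated siControl library, against 15.4, 45.8 and 16.6 TPM in the siControl kahweol, siCTGF untreated and siCTGF kahweol libraries. RAB25, a recycling GTPase of epithelial cells, had 15.5 TPM, against 5.31 TPM in the siControl kahweol, 11.3 TPM in the siCTGF untreated and 4.15 TPM in the siCTGF kahweol library. CDH1 lay closer together, with 3.77 TPM against 2.28 to 4.29 TPM in the other 3 libraries. In such bulk libraries fewer cells of a type and less RNA per cell cannot be told apart.

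Simple-epithelium keratins dominated the keratin family. KRT18 had 473 TPM, KRT19 464 TPM, KRT8 414 TPM and KRT7 401 TPM, and the next, KRT80, had 29.5 TPM. Of 55 keratin genes 12 were on and 33 were off, against 62.8% on and 26.4% off over all protein-coding genes. KRT5, KRT14, KRT6A and KRT6B, the keratins of basal cells, were among those off. KRT5 had 0 counts in all 4 libraries. KRT8 and KRT18 overlap at their ends on opposite strands, and the strand setting of the counting is not given in the sources used here, so their shared reads may be misplaced. The TPM of VIM was 2.04 times that of KRT8, KRT18 and KRT19 together, and 2.17 to 2.88 times in the other 3 libraries. Of 34 basal and myoepithelial genes 20 were on (58.8%, near the 62.8% of all protein-coding genes), 7 were low and 7 off. The highest was LAMB3 (490.2 TPM). TP63, the basal master factor, was low with 0.18 TPM, as was KRT17 with 0.54 TPM.

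Claudins and cadherins were restricted to few members, whereas 62.8% of all protein-coding genes were on and 26.4% off. Of 24 claudins 7 were on and 17 off, with none between: after CLDN4 and CLDN7 came CLDN12 (37.7 TPM), CLDN23 (9.90 TPM) and CLDN15 (3.12 TPM). Of 23 cadherins 4 were on. R-cadherin, CDH4, had 20.9 TPM and P-cadherin, CDH3, had 18.8 TPM, and both exceeded CDH1 with intervals that did not meet (20.02 to 21.8 and 17.7 to 19.9 TPM against 3.34 to 4.25 TPM). CDH24 had 5.93 TPM.

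Matrix genes were set beside the 62.8% of all protein-coding genes that were on. Of 44 collagens 20 were on (45.5%), led by the transmembrane collagen COL13A1 (106 TPM), the basement membrane collagens COL4A2 (101.5 TPM) and COL18A1 (80.7 TPM), and COL6A2 (43.8 TPM) and COL6A1 (43.5 TPM). The fibrillar collagens of fibroblasts were scarce: COL1A1 had 1.51 TPM, COL1A2 was off with 6 counts, and COL3A1 was off. Of 12 laminins 7 were on (58.3%), and LAMB3 had 490.2 TPM, 90.4 times LAMA3 (5.42 TPM), although both chains are parts of 1 trimer. The excess of LAMB3 over LAMA3 was 85.8 to 115.2 times in the other 3 libraries. Among 26 integrins 14 were on (53.8%), with ITGB1 (694 TPM), ITGA3 (432 TPM), ITGA6 (127 TPM), ITGA5 (122 TPM) and ITGB5 (67.8 TPM) the highest. ITGB1, which pairs with most alpha chains, had 59.0 times the TPM of ITGB4 (11.8 TPM), the partner of ITGA6 in hemidesmosomes. The excess of ITGB1 over ITGB4 varied, with 69.2 to 234.6 times in the other 3 libraries.

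Matrix breakdown was represented by membrane and plasminogen proteases. The counts below stand beside the 62.8% of all protein-coding genes that were on. Of 23 matrix metalloproteinases 9 were on, and the membrane-bound MMP14 was highest with 185 TPM, before MMP1 (20.5 TPM), MMP11 (7.12 TPM), MMP15 (5.63 TPM) and MMP7 (4.16 TPM). The gelatinase MMP2 was off. Of 12 genes of the plasminogen system and the protease inhibitors 10 were on, among them the urokinase PLAU (408 TPM), TIMP1 (262 TPM) and the urokinase receptor PLAUR (156 TPM). PLAU varied among the libraries, with 408 TPM against 111, 306 and 96.4 TPM in the siControl kahweol, siCTGF untreated and siCTGF kahweol libraries. Matricellular and other glycoproteins were on in 24 of 44 cases, led by TGFBI (319 TPM), CCN2 (140.2 TPM), THBS1 (78.0 TPM), CCN1 (64.1 TPM) and AGRN (43.8 TPM), while POSTN, ELN and VTN were off. Of 22 proteoglycans 10 were on, with SRGN (240 TPM), SDC4 (192 TPM) and SDC1 (59.5 TPM) highest and DCN, LUM and BGN off.

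All 24 genes of the YAP/TAZ and TEAD list, through which cell shape and matrix stiffness act on transcription, were on. The share over all protein-coding genes was 62.8%. The target ANKRD1 (473 TPM), AXL (437 TPM), the kinase adaptor MOB1A (198 TPM), CRIM1 (165 TPM) and the target CCN2 (140.2 TPM) stood above the cofactors YAP1 (43.5 TPM) and WWTR1 (26.5 TPM), and TEAD1 (47.8 TPM) held 44.5% of the TEAD family's TPM and 78.1% of its counts. Among 32 TGF-beta pathway genes 25 were on (78.1%). The receptors TGFBR2 (86.8 TPM) and TGFBR1 (35.9 TPM), the stress-induced cytokine GDF15 (79.9 TPM) and the signal carriers SMAD5 (67.7 TPM) and SMAD3 (56.7 TPM) were among the higher ones. LEFTY2 and BMP2 were off.

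Of 32 cytokines and chemokines 21 were on (65.6%, near the 62.8% of all protein-coding genes), with a list median of 5.35 TPM, and a few were high. IL1B had 181 TPM, CSF3 (G-CSF) 131 TPM, CXCL8, whose promoter is printed above, 126 TPM, IL11 94.9 TPM and CXCL1 72.4 TPM. IL6 had 5.50 TPM (interval 4.44 to 6.73), and CXCL8 was 22.9 times as high, and 15.9 to 37.3 times across the other libraries. IL33, CXCL5, CXCL6, CXCL9, CXCL12, CCL2 and CX3CL1 were off. Of 31 cytokine and chemokine receptors 18 were on, led by the shared IL-6 family subunit IL6ST (121 TPM) and TNFRSF1A (108 TPM), and the CXCL8 receptors CXCR1 and CXCR2 were off.

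Cell cycle genes were on throughout. All 32 proliferation genes were on, against 62.8% of all protein-coding genes. They had a median of 115.9 TPM and were led by PCNA (419 TPM), CCNB1 (394 TPM), UBE2C (354 TPM), MCM7 (306 TPM) and AURKA (282 TPM). Of 39 regulators of the cell cycle and MAPK signalling 36 were on, MYCN was off, and CDKN2B (0.95 TPM) and CCND2 (0.79 TPM) were low. CDKN1A, an inhibitor of cyclin-dependent kinases, had 187 TPM.

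CDKN2A, which encodes the inhibitor of CDK4 and CDK6 and is described as deleted in this line, had 161 counts and 4.55 TPM (interval 3.61 to 5.66). In the siControl kahweol, siCTGF untreated and siCTGF kahweol libraries it had 1.92, 3.83 and 2.02 TPM. The neighbour MTAP, an enzyme of methionine salvage, had 2956 counts and 16.2 TPM, against 3.30, 15.2 and 2.62 TPM in the siControl kahweol, siCTGF untreated and siCTGF kahweol libraries. In MTAP, as in CLDN7, both untreated libraries were higher than both kahweol libraries. That order was not particular to these genes. MAGEB2 had 38.1 and 35.1 TPM untreated (siControl, then siCTGF), against 14.4 and 12.9 TPM with kahweol. CDKN1A had the reverse order, with 187 and 125 TPM untreated against 281 and 253 TPM with kahweol. Protein-coding genes held 75.4% and 74.9% of the TPM untreated, against 68.9% and 65.9% with kahweol. Where the CDKN2A and MTAP reads came from was not tested. Of the 23 protein-coding genes within 1 Mb of CDKN2A, 17 had 0 counts in all 4 libraries, among them 15 of the 16 interferon genes, HACD4 and DMRTA1. Over all protein-coding genes, 3910 (20.2%) had 0 counts in the untreated siControl library. FOCAD (8.91 TPM) and KLHL9 (4.03 TPM) were on, and IFNE had 4 counts.

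**Figure D4:**
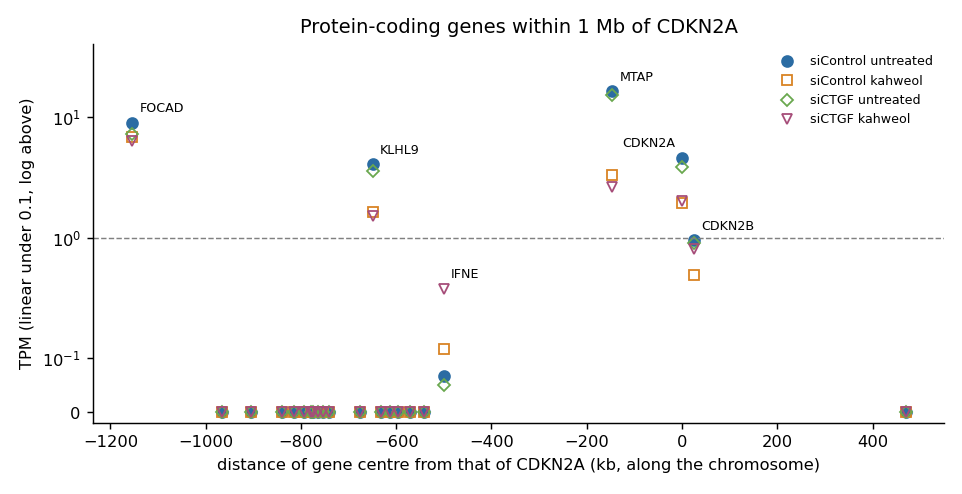
TPM (vertical axis, linear under 0.1 and log above) of the protein-coding genes within 1 Mb of CDKN2A by the distance of their centres from that of CDKN2A in kb (horizontal axis), in the 4 libraries. MTAP stands at 16.2 TPM in the untreated siControl library and at 3.30 and 2.62 TPM in the siControl kahweol and siCTGF kahweol libraries, and most genes lie at 0.

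Metabolic and skeletal families mostly relied on 1 member. ENO1 held 98.4% of the enolase TPM and LGALS1 96.2% of the galectin TPM. SLC2A1 held 85.9% among 5 glucose transporters and 59.0% of the whole family of 14, in which SLC2A6 (48.8 TPM) was next. MYH9 held 85.1% of the nonmuscle myosins, HK1 83.7% of the hexokinases, PFKP 78.4% of the phosphofructokinases, ALDOA 76.8% of the aldolases and CAV1 75.1% of the caveolins. S100A6 held 72.1% of the S100 TPM and TUBA1B 71.0% of the alpha tubulins. Others were shared: ACTG1 held 57.0% and ACTB 42.9% of the actins, and TPM3 held 41.0% of the tropomyosins. For the lactate dehydrogenases the order depended on the unit, with LDHB at 57.3% of TPM (1615 TPM against 1203 TPM for LDHA) but fewer counts than LDHA. The beta tubulins TUBB4B (909.5 TPM) and TUBB (880.1 TPM) also changed places between TPM and counts, as did HRAS and NRAS. HRAS had 91.1 TPM and NRAS 81.3 TPM.

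Of the 131 markers in 11 lists of other tissues 83 were off, 21 low and 27 on. Over all protein-coding genes 26.4% were off and 62.8% on. Shares on ran from 0 of 12 (pluripotency and germ cells) to 5 of 12 (endothelium). The adipocyte list had 4 of 10 on and 3 off, with PPARG, the adipocyte nuclear receptor, at 18.0 TPM and CFD at 10.4 TPM, while LEP was off and ADIPOQ low at 0.12 TPM. Of 12 fibroblast markers 3 were on, and DCN, LUM, PDGFRA, FAP and THY1 were off. Of 16 leukocyte markers 4 were on, CD68 (53.1 TPM), LCP1 (36.5 TPM), CD14 (1.79 TPM) and CD8A (1.71 TPM), whereas PTPRC, the defining CD45 gene and CD3D were off. The endothelial genes EGFL7 (108 TPM) and ESAM (84.5 TPM) were on, but 3 of the 12 were low and 4 off. PECAM1 (0.19 TPM) and CDH5 (0.89 TPM) were among the low ones, and TEK, ERG and CLDN5 among those off. TUBB3 (122 TPM) and ENO2 (54.0 TPM), counted as neuronal, and the protease inhibitor SERPINA1 (32.3 TPM), counted as hepatic, were on, while the neurofilament genes NEFL, NEFM and NEFH and the liver genes APOA1, APOB and TTR were off. SNAP25 (1.19 TPM) and SYP (1.05 TPM) lay just above the limit for on. Milk proteins, melanocyte, muscle and erythroid genes were on in 1 of 9, 2 of 10, 1 of 12 and 1 of 12 cases.

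**Figure D5:**
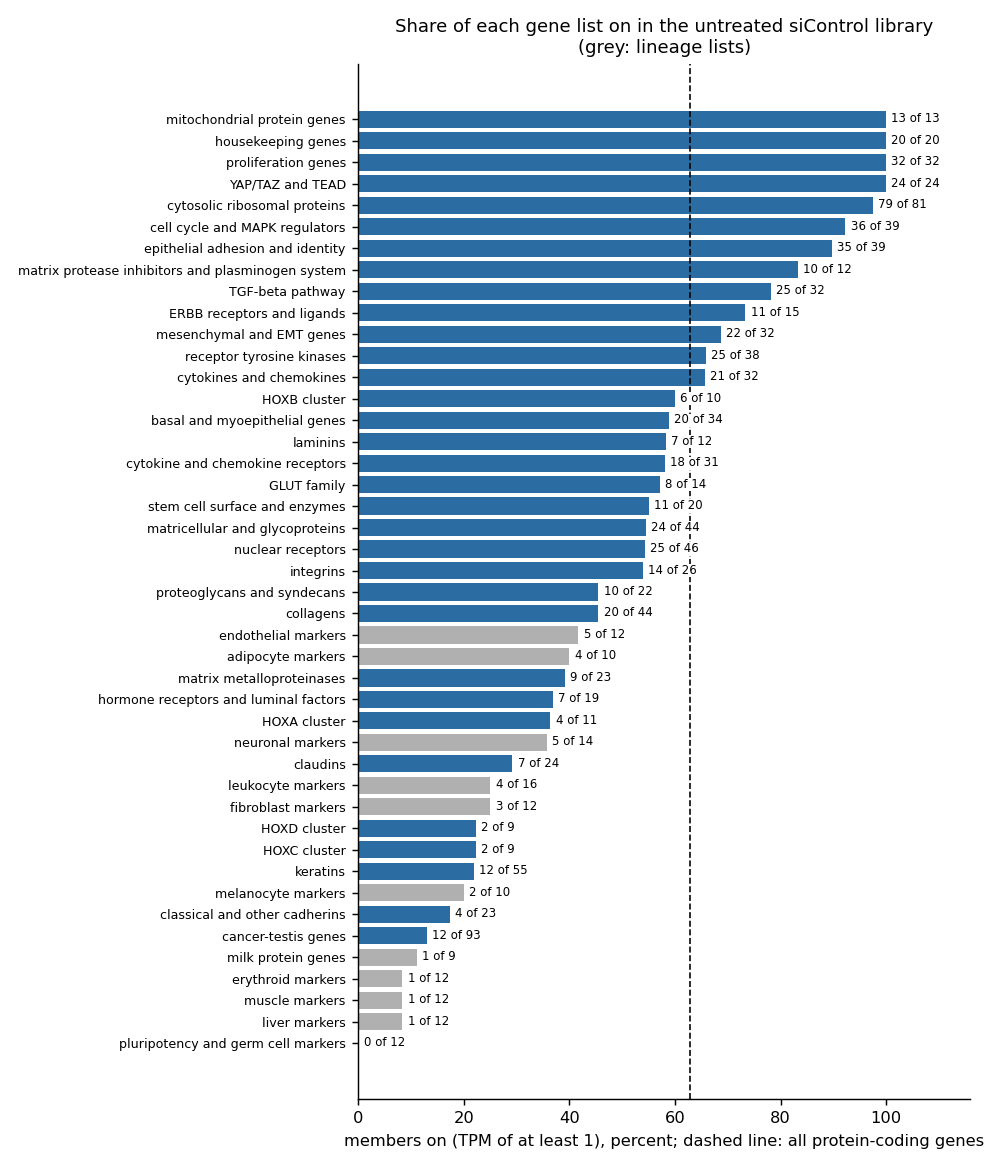
Share of members on (horizontal axis, percent of the genes in the table) in the untreated siControl library for each gene list, with the lineage lists in grey and the 62.8% of all protein-coding genes as a dashed line. Proliferation (32 of 32) and YAP/TAZ genes (24 of 24) fill their bars, epithelial genes (35 of 39) exceed mesenchymal genes (22 of 32), and keratins (12 of 55) lie with the lineage lists.

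The HOX clusters, which record position along the body axis, were on in part. On were 4 of 11 HOXA, 6 of 10 HOXB, 2 of 9 HOXC and 2 of 9 HOXD genes, against 62.8% of all protein-coding genes. HOXA9 (11.8 TPM), HOXB9 (10.2 TPM) and HOXB7 (8.38 TPM) were highest. Of 93 cancer-testis genes, which are normally confined to the germ line, 12 were on (12.9%) and 77 off. Over all protein-coding genes 26.4% were off. XAGE1A and XAGE1B had 205 and 186 TPM, but these are near-identical copies whose reads cannot be told apart with certainty. MAGEB2 had 38.1 TPM, against 14.4, 35.1 and 12.9 TPM in the siControl kahweol, siCTGF untreated and siCTGF kahweol libraries, and MAGEA6 had 22.1 TPM.

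The 13 protein genes of the mitochondrial genome, which encode subunits of the respiratory chain, were all on but at very uneven levels. COX3 had 1791 TPM and COX1 945 TPM, and together they held 90.9% of the counts of the 13 genes. All 13 together held only 0.161% of the counts of the library, against 3.94% for the mitochondrial rRNA genes RNR1 and RNR2. That rRNA share was what remained after rRNA depletion, and it was 3.11% to 6.01% in the other 3 libraries. COX2 had 124 TPM, ND1 36.4 TPM and ND6, the lowest, 6.84 TPM. COX3 was 262 times as high as ND6, and 200.2 to 332 times in the other 3 libraries. Copies of mitochondrial sequence in the nuclear genome can share these reads, and whether they did was not tested.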

How the data were processed

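RNA of 4 MDA-MB-231 libraries (rRNA-depleted, stranded, paired reads) was measured, 1 library per condition. The labels and the study's methods name different RNA extraction kits. According to the submitters' processing notes, FastQC 0.11.7, Trimmomatic 0.38, HISAT2 2.1.0, Bowtie2 2.3.4.1 and StringTie 2.1.3b were used with GRCh37.p13; the strand setting of the counting is not given in the sources used here. The estimated counts per gene were deposited by the authors without normalization. The deposited TPM and FPKM came from the authors' StringTie run. The coverage signal deposited by the authors gave the check that 1 count is about 101 bases, that is, 1 read, so 2 counts were taken as 1 fragment.

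Genes were called on at 1 TPM or more and off under 0.1 TPM. Intervals are 95% exact binomial (Clopper-Pearson) bounds on the fragments of a gene, scaled to TPM, and 0 counts were given a limit of 3 fragments. The total of 59129784 counts gives narrow intervals for abundant genes. Interval and call code was tested on simulated data. Python 3.11.15, numpy 2.4.6, pandas 2.3.3, scipy 1.17.1 and matplotlib 3.10.9 were used.

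The 68 gene lists, families and markers were written from general knowledge and chosen with earlier results of these data known. CD24 and other listed symbols that the table lacks were left out of the counts. Named genes were the markers, the genes measured by the study, the 10 highest genes, all members of the receptor, ERBB, luminal, epithelial, mesenchymal and CCN lists, the highest 5 and the off members of other lists, the first members of families, and the genes within 1 Mb of CDKN2A. YAP1, WWTR1, IL6, CDKN2B, CCND2, TP63, KRT17, ITGB4, LAMA3, COL1A1, PECAM1, CDH5, ADIPOQ, ND6, SNHG29, EEF2, PPIA and the histone genes lie outside that rule and were chosen after their values were seen. Alternatives were other limits and units for on and off, rescaled TPM, a minimum of 10 counts, shares of counts, and other promoter limits; the restriction to 15 chromosomes was chosen after the promoter match had been seen. Some genes of the lists enter the counts but are left out of the text and figures.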

Additional observations from a re-analysis of the deposited data

How the results depend on the processing

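With 1 library per condition no alternative was tested against replicate error. No paired analysis was possible because each condition had 1 library and no test was made. The counts of protein-coding genes on and off moved by less than 1.5 times under every alternative run. lncRNA genes on numbered 433 at a limit of 2 TPM and 421 by FPKM, against 705. At a limit of 2 TPM and by FPKM alike, members on were 4 of the luminal, 2 of the HOXA, 3 of the HOXB, 1 of the HOXC, 1 of the fibroblast, 2 of the leukocyte, 0 of the milk protein, 3 of the neuronal and 0 of the muscle genes. At 0.5 TPM they were 4 of the HOXD, 2 of the milk protein and 2 of the muscle genes, and by CPM, which ignores length, 11 of the laminin and 1 of the HOXC genes. The protein-coding share of TPM was 92.0% as counts and 97.3% without small noncoding RNA and rRNA genes. To reach 50% of the protein-coding counts took 1126 genes. Promoters with a CG ratio of at least 0.75 made up 74.97% of genes on and 21.9% of genes off. The share at 0.6 was 90.8% for genes of at least 2 TPM. Chosen after seeing the data, genes with 1 annotated start gave 87.8% (on) and 29.2% (off), and all chromosomes gave 30.3% (off). Rescaling TPM over protein-coding genes multiplied each by 1.33. By counts, another member led 3 of the 20 families.

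Depth limits genes with few reads: COL11A1, ESR1, ERBB4 and CCN6 rest on 3 to 6 counts.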
